A study of Homo sapiens with 6 samples.

Results

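Binding sites of the fragile X protein family were counted on the transcripts of 7 giant cadherin genes: FAT1, FAT3, FAT4, DCHS1, CELSR1, CELSR2 and CELSR3. A site was assigned to a gene when its midpoint lay in the gene's hg19 span on the gene's strand. In all, 1888 of the 464799 sites in 6 lists met this rule. The genes were chosen by the number of sites these same lists hold on them, so their site numbers and densities are a description and were not tested. The hg19 spans were chr4:187508937-187647876 (minus strand) for FAT1, chr11:92085262-92629636 (plus) for FAT3, chr4:126237554-126414087 (plus) for FAT4 and chr11:6642556-6677085 (minus) for DCHS1. Those of CELSR1, CELSR2 and CELSR3 were chr22:46756731-46933067 (minus), chr1:109792641-109818377 (plus) and chr3:48673896-48700348 (minus). All 7 genes had sites, and none was left out for a low count.

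The sites came from PAR-CLIP, which maps where a protein touches RNA in living cells: 4-thiouridine in the RNA is crosslinked to bound protein by ultraviolet light, and the attached RNA fragments are sequenced. The cells were stable FlpIn T-Rex lines of HEK293, an established human embryonic kidney line, each carrying a FLAG-HA-tagged transgene. The libraries were I304N FMR1 isoform 1, I304N FMR1 isoform 7, FXR1, FXR2, wild-type (WT) FMR1 isoform 7 and WT FMR1 isoform 1; an isoform named without a gene is one of FMR1. All cells received 1 µg/ml doxycycline to switch on the transgene and 100 µM 4-thiouridine for 16 h, and all samples were precipitated through the FLAG tag. All were irradiated at 365 nm with 0.15 J/cm2 and treated with the ribonuclease RNase T1 for 15 min at 22 °C. The labels describe no deletion of the cells' own FMR1, FXR1 or FXR2, and the protein was made from an induced transgene. The lists held 132219, 88644, 9017, 34521, 78495 and 121903 sites in that order. Each protein form had 1 library, so no value has a replicate error, no test between forms was made, and every interval is an exact 95% interval of counting error alone.

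FMR1 is an RNA-binding protein found on polyribosomes and known as a repressor of translation; its loss causes fragile X syndrome. FXR1 and FXR2 are its close paralogs, and I304N changes a residue in the second KH domain, a fold that contacts RNA. FAT1, FAT3, FAT4 and DCHS1 are very large single-pass members of the cadherin superfamily. FAT4 and DCHS1 bind each other across cell contacts and orient cells within a tissue sheet, a property called planar cell polarity. CELSR1, CELSR2 and CELSR3 are mammalian relatives of fly Flamingo, adhesion G protein-coupled receptors with long cadherin ectodomains that act in the core planar polarity pathway and in axon guidance.

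The 7 transcripts shared length but not base composition. Their longest coding sequences in GENCODE release 29 ran from 8769 nt in CELSR2 to 14943 nt in FAT4, against a median of 1296 nt over 19677 protein-coding genes. The GC content of the transcript was 44.7% for FAT4, 45.0% for FAT3 and 46.2% for FAT1, below the median of 49.9% over all genes. It was 60.3% for CELSR2, 61.4% for CELSR3, 61.4% for CELSR1 and 62.0% for DCHS1, above the upper quartile of 57.6%. Uracil, the base that 4-thiouridine replaces, made up 25.5% of the FAT1 transcript, 26.9% of FAT3 and 27.0% of FAT4. It made up 19.1% of CELSR1, 19.4% of DCHS1, 19.9% of CELSR3 and 20.4% of CELSR2.

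To show this contrast, a coding stretch of 60 nt is given for 2 FAT genes and for CELSR2 and DCHS1, in each case the earliest in-frame stretch whose GC content was nearest that of the gene's whole coding sequence. They are coding nt 43 to 102 of FAT1, 1396 to 1455 of FAT4, 232 to 291 of CELSR2 and 19 to 78 of DCHS1. The stretches are sense strand, written as DNA, 5′ to 3′, from GENCODE transcripts; they are not binding sites. Capitals mark the words ACTT or ACTG and AGGA or TGGA, the DNA spelling of elements known for FMR1.
FAT1: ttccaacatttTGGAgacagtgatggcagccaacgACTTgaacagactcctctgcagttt
FAT4: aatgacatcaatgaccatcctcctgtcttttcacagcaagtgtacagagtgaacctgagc
CELSR2: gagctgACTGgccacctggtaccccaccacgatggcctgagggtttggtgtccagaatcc
DCHS1: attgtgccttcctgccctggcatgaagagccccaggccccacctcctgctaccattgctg

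The FAT1 stretch holds a word of each kind, the CELSR2 stretch an ACTG, and the FAT4 and DCHS1 stretches neither. Searched on the sense strand only, 39.7% of consecutive 60 nt stretches of all protein-coding transcripts held ACTT or ACTG and 52.1% held AGGA or TGGA. Over whole transcripts, ACTT or ACTG occurred 12.2 times per kb in FAT4 and between 7.11 (CELSR1) and 9.67 (FAT3) times per kb in the other genes, with a median of 8.58 over all genes. AGGA or TGGA occurred between 12.7 (CELSR3) and 15.2 (DCHS1) times per kb, with a median of 13.5 over all genes. Which bases lie under the binding sites was not analysed here, because no hg19 sequence was at hand.

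FAT1, an atypical cadherin that acts on actin and cell migration, was the gene with the most sites in every library. It had 192 sites in I304N isoform 1, 129 in I304N isoform 7, 21 in FXR1, 65 in FXR2, 142 in WT isoform 7 and 188 in WT isoform 1. Scaled to 100000 sites of the library, its density was 145, 146, 233, 188, 181 and 154 sites in the same order. The lowest and highest values were those of I304N isoform 1 (125 to 167) and FXR1 (144 to 356), whose intervals overlap, so no order among the libraries was resolved for FAT1 by counting sites. The measure mattered here: with sites within 50 nt joined and counted once, the FAT1 ratio to WT isoform 1 was 3.38 for FXR1, 2.49 for FXR2 and 2.00 for WT isoform 7, against 1.51, 1.22 and 1.17 for single sites. By covered nucleotides these ratios were 0.959, 0.817 and 0.837.

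FAT3, known in mouse for shaping the dendrites of retinal amacrine cells, had 78 sites in I304N isoform 1, 21 in I304N isoform 7, 4 in FXR1, 20 in FXR2, 56 in WT isoform 7 and 90 in WT isoform 1. I304N isoform 7 was the lowest, with 23.7 sites per 100000 (14.7 to 36.2), and the libraries of WT isoform 1 and isoform 7 the highest, with 73.8 and 71.3. Its interval overlapped those of FXR1 and FXR2 and lay below those of the other libraries. The intervals of I304N isoform 1, FXR1, FXR2 and both WT FMR1 libraries overlapped each other.

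FAT4 had 20 sites in I304N isoform 1, 0 in I304N isoform 7, 0 in FXR1, 1 in FXR2, 19 in WT isoform 7 and 109 in WT isoform 1. WT isoform 1 stood above all other libraries with 89.4 sites per 100000 (73.4 to 108), followed by WT isoform 7 with 24.2 and I304N isoform 1 with 15.1, whose intervals overlap. With 3 sites counted in place of 0, the density would be 3.38 per 100000 in I304N isoform 7 and 33.3 in FXR1. The upper limits of the exact intervals were 4.16 and 40.9 per 100000. The FXR1 list was therefore too short to tell FAT4 apart from the levels of the libraries other than WT isoform 1.

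DCHS1, the partner of FAT4, was highest in the I304N libraries. It had 26 sites in I304N isoform 1 and 38 in I304N isoform 7, against 0 in FXR1, 1 in FXR2, 5 in WT isoform 7 and 2 in WT isoform 1. Both I304N libraries lay above both WT FMR1 libraries, except that the lower limit of I304N isoform 1 (12.8 per 100000) fell below the upper limit of WT isoform 7 (14.9).

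CELSR2, which in mouse is needed with CELSR3 for the cilia of ependymal cells, had 117 sites in I304N isoform 1, 69 in I304N isoform 7, 0 in FXR1, 4 in FXR2, 90 in WT isoform 7 and 55 in WT isoform 1. CELSR3, a guidance factor for forebrain axon tracts in mouse, had 74, 68, 1, 8, 21 and 13 sites in these libraries. CELSR1, which acts in neural tube closure and hair follicle orientation in mouse, had 49, 22, 0, 5, 52 and 13. WT isoform 7 was the highest library for CELSR2 (115 per 100000) and CELSR1 (66.2), and I304N isoform 7 the highest for CELSR3 (76.7). For CELSR2 the interval of the highest library overlapped those of I304N isoform 1 and I304N isoform 7. For CELSR3 it overlapped those of I304N isoform 1 and FXR1, and for CELSR1 it overlapped none. Among the FMR1 libraries WT isoform 1 was the lowest on every CELSR gene, with 45.1, 10.7 and 10.7 sites per 100000 for CELSR2, CELSR3 and CELSR1.

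**Figure D1:**
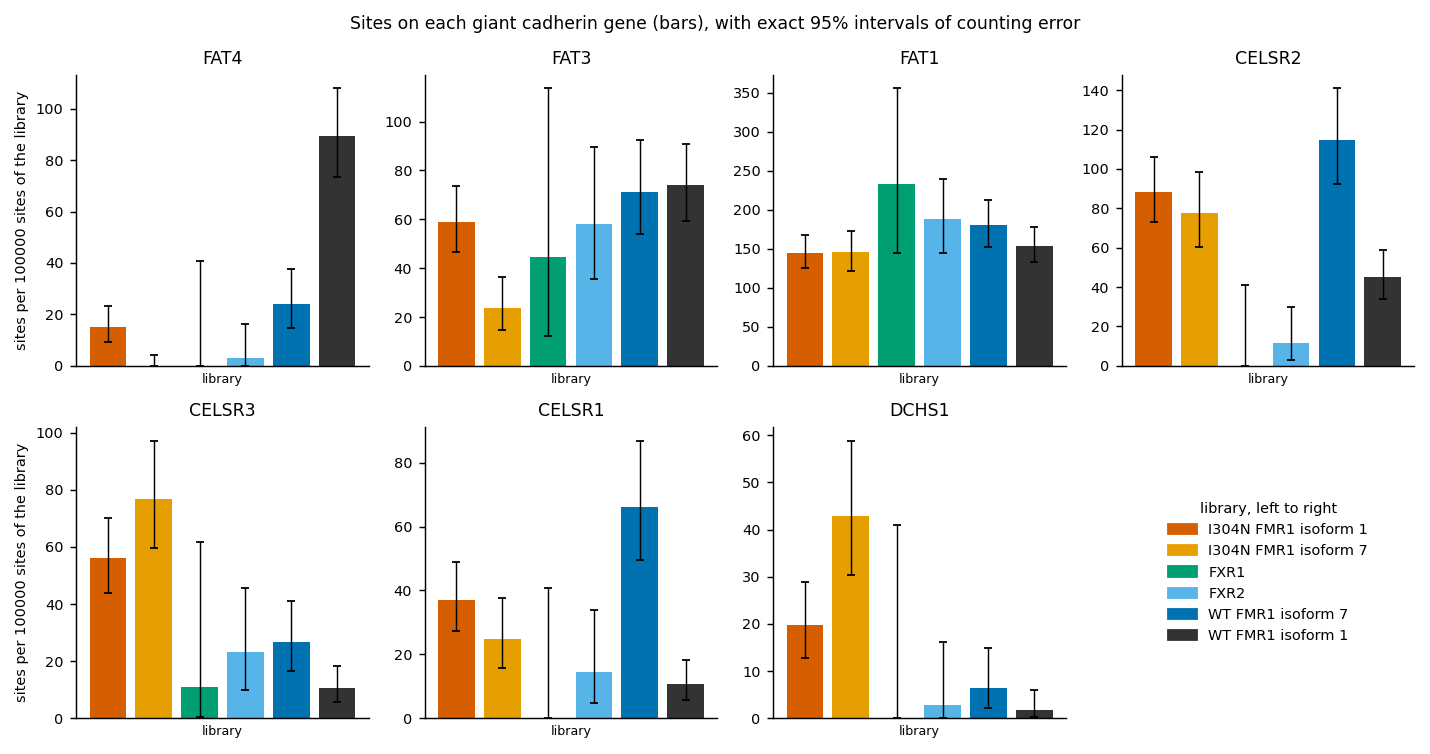
Sites per 100000 sites of the library (y axis) for each gene and library, with exact 95% intervals of counting error; genes are ordered by the GC content of their transcripts. FAT1 ran from 145 in I304N isoform 1 to 233 in FXR1, with overlapping intervals. FAT4 was highest in WT isoform 1 (89.4), and DCHS1 was highest in I304N isoform 7 (42.9).

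Per kb of transcript, FAT1 was the densest of the 7 genes in all 6 libraries, with 9.84 to 15.8 sites per 100000 per kb. The next densest was CELSR2 in I304N isoform 1 (8.40), I304N isoform 7 (7.39) and WT isoform 7 (10.9), FAT3 in FXR1 (2.33) and FXR2 (3.04), and FAT4 in WT isoform 1 (5.55). DCHS1 was the sparsest in WT isoform 1, at 0.152. These orders are of the values alone: no intervals per kb were computed, so places close in value, as FAT1 and CELSR2, may not be resolved. RNA levels in these cells were not measured in the lists, so more sites on a gene and more of its RNA cannot be told apart.

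Taken by gene family, the make-up of the sites differed between libraries. The FAT genes held 52.2% of the sites on the 7 genes in I304N isoform 1 (47.9 to 56.4), 43.2% in I304N isoform 7 (37.9 to 48.6), 96.2% in FXR1 (80.4 to 99.9), 82.7% in FXR2 (74.0 to 89.4), 56.4% in WT isoform 7 (51.2 to 61.4) and 82.3% in WT isoform 1 (78.6 to 85.7). FXR1, FXR2 and WT isoform 1 thus lay above the other libraries, with no overlap of intervals. FAT1 alone held 80.8% of the FXR1 sites and 62.5% of the FXR2 sites, against 36.9% for WT isoform 7 and 188 of the 470 sites of WT isoform 1. The 7 genes together held 0.421% of all sites in I304N isoform 1, 0.391% in I304N isoform 7, 0.288% in FXR1, 0.301% in FXR2, 0.490% in WT isoform 7 and 0.386% in WT isoform 1.

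**Figure D2:**
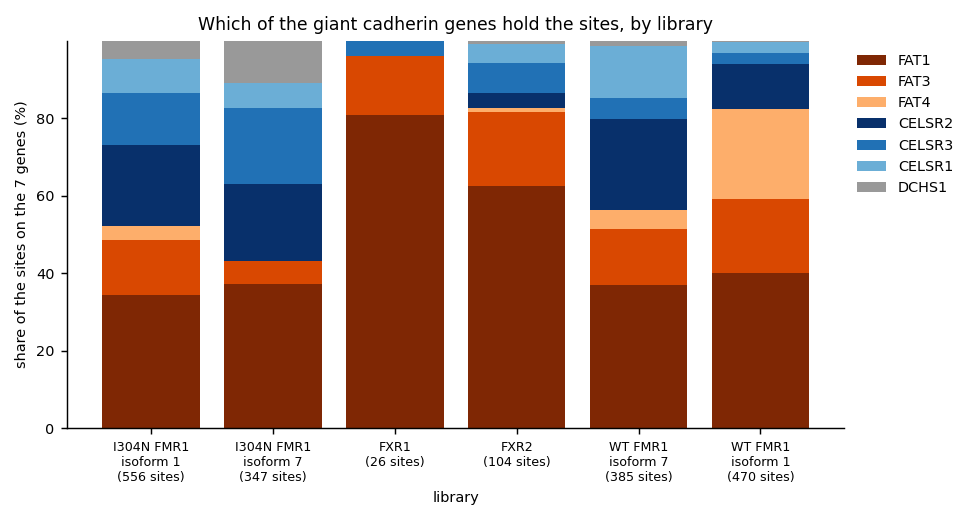
Share of the sites on the 7 genes that each gene holds (y axis, percent), by library. The FAT genes, in brown and orange, take 96.2% in FXR1, 82.7% in FXR2 and 82.3% in WT isoform 1, and 43.2% to 56.4% in the other libraries.

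The first comparison asked how I304N differed from wild type on these genes within each isoform. In isoform 1, CELSR1, CELSR3 and DCHS1 were at least 2-fold denser with I304N and FAT4 at least 2-fold sparser. These are 3 and 1 of 7 genes, and among 50 kb windows of the genome 29.9% were at least 2-fold higher and 20.4% at least 2-fold lower by the same rule. Without the filter on windows with few sites, the share of lower windows was 11.5%. Windows needed a mean of only 2 sites per 100000, while the genes were chosen for many sites, so genes and windows are unlike in site number. No test of the genes' counts against the window shares was made, here or in the comparisons that follow. The ratio of I304N to WT density was 12 for DCHS1 (3.0 to 104), 5.25 for CELSR3 (2.89 to 10.3), 3.48 for CELSR1 (1.86 to 6.98) and 1.96 for CELSR2 (1.41 to 2.75). With sites within 50 nt joined, the CELSR2 ratio was 1.16. Under another scaling of the libraries, median-of-ratios, it was 3.05, above its interval. For FAT4 the ratio was 0.169 (0.0994 to 0.274), while the intervals of FAT3 (0.799) and FAT1 (0.942) held 1. The median log2 ratio was 0.96 over the 7 genes and 0.12 over all windows.

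In isoform 7, CELSR3 and DCHS1 were at least 2-fold denser with I304N, and CELSR1, FAT3 and FAT4 at least 2-fold sparser. Windows of the genome were at least 2-fold higher in 21.4% and at least 2-fold lower in 20.1% of cases, and without the filter 45.0% were lower. The ratio was 6.73 for DCHS1 (2.64 to 21.9) and 2.87 for CELSR3 (1.74 to 4.93). It was 0.679 for CELSR2 (0.489 to 0.939), 0.375 for CELSR1 (0.217 to 0.628) and 0.332 for FAT3 (0.191 to 0.557). FAT4 had 0 sites against 19, which is 7.15-fold lower if 3 sites are counted in place of 0 in I304N isoform 7. That fold leaves out the counting error of the 19 sites. The upper limit of the ratio, which includes it, was 0.190. The interval of FAT1 (0.804) held 1. The median log2 ratio was -0.55 over the 7 genes and 0.04 over all windows.

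DCHS1 and CELSR3 were thus denser with I304N in both isoforms, and FAT4 was sparser in both, beyond counting error. CELSR1 and CELSR2 were denser with I304N in isoform 1 and sparser in isoform 7. The WT isoform 1 library moved with that contrast: with WT isoform 7 as the reference instead, a choice made after seeing the data, I304N isoform 1 had a ratio of 0.559 for CELSR1 and 0.772 for CELSR2. For DCHS1 it was 3.09 and for CELSR3 2.09. For FAT4 it was 0.625, from 20 sites against 19 with overlapping density intervals, so the isoform 1 contrast of FAT4 also depended on the WT isoform 1 library. Summed over FAT1, FAT3 and FAT4 the ratio was 0.691 in isoform 1 (0.591 to 0.807) and 0.612 in isoform 7 (0.494 to 0.757). In isoform 1 only FAT4 of these was sparser beyond counting error, as the intervals of FAT1 (0.942) and FAT3 (0.799) held 1. Under median-of-ratios scaling, which multiplies every ratio of a comparison by the same factor, the summed isoform 1 value was 1.07.

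The second comparison set isoform 7 against isoform 1. Among WT libraries, CELSR1, CELSR2, CELSR3 and DCHS1 were at least 2-fold denser in isoform 7 and FAT4 at least 2-fold sparser, 4 and 1 of 7 genes. Windows of the genome were at least 2-fold higher in 21.3% and lower in 22.4% of cases. Without the filter 44.7% were higher and 12.4% lower, so the background share of higher windows depends on the filter. The ratio was 6.21 for CELSR1 (3.34 to 12.4), 2.54 for CELSR2 (1.80 to 3.62), 2.51 for CELSR3 (1.20 to 5.45) and 0.271 for FAT4 (0.157 to 0.443). The CELSR2 ratio was 1.72, below 2-fold and outside its interval, with sites within 50 nt joined, and 3.84 under median-of-ratios scaling. The DCHS1 ratio of 3.88 rested on 5 sites against 2, and its interval held 1.

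Among I304N libraries, DCHS1 was at least 2-fold denser in isoform 7, 1 of 7 genes, and FAT3 and FAT4 at least 2-fold sparser, 2 of 7 genes, where 5.5% of windows were higher (8.36% without the filter) and 16.3% lower. The ratio was 2.18 for DCHS1 (1.29 to 3.74) and 0.402 for FAT3 (0.236 to 0.657). FAT4 had 0 sites against 20, which is 4.47-fold lower if 3 sites are counted in place of 0. That fold leaves out the counting error of the 20 sites, and the upper limit of the ratio was 0.302. All 3 CELSR genes had intervals that held 1, with ratios of 1.37 for CELSR3, 0.880 for CELSR2 and 0.670 for CELSR1. FAT4 was sparser in isoform 7 beyond counting error both with I304N and in WT, and the same was true of no other gene of the 7.

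The ratios tended to be higher for genes with more GC. Across the 7 genes, Spearman's rho between GC content and the log2 ratio was 0.96 for I304N over WT in isoform 1 and 0.75 in isoform 7. It was 0.93 for isoform 7 over isoform 1 among WT libraries and 0.75 among I304N libraries. The values are descriptions over 7 genes that fall into a GC-poor and a GC-rich set, and the comparisons share libraries. Uracil content separates the same 2 sets, and the part of base composition in the ratios was not tested. For FXR2 over WT isoform 1 rho was 0.79, and for the other comparisons of FXR1 and FXR2 it lay between -0.43 and 0.14.

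**Figure D3:**
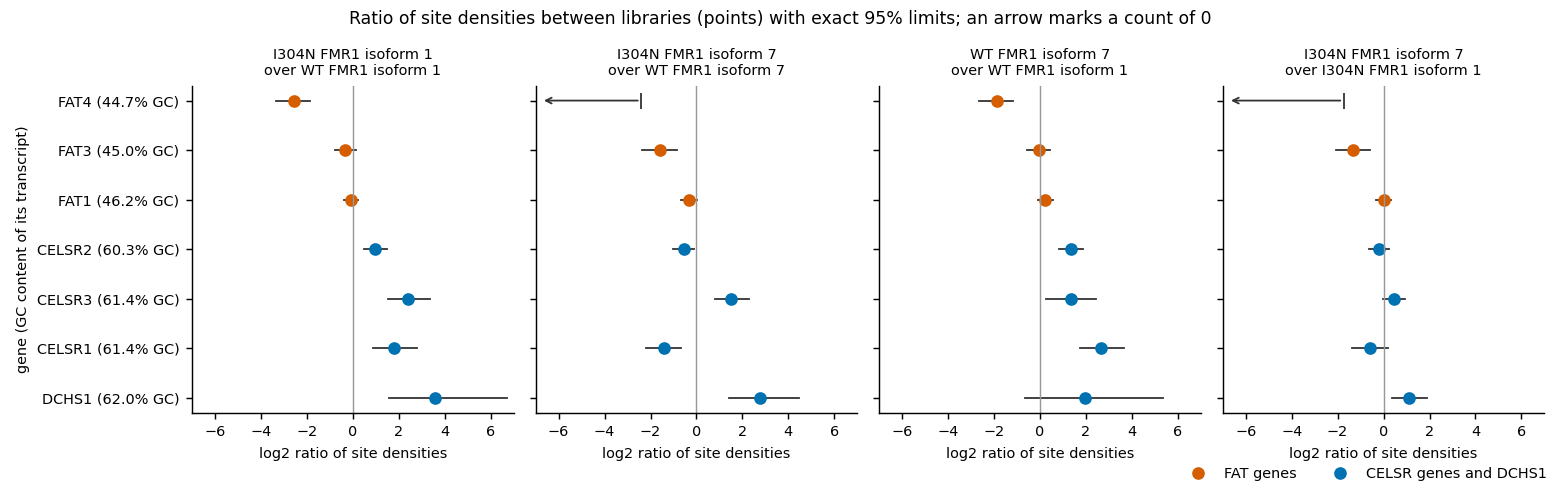
Log2 ratio of site densities (x axis, without pseudocount) for each gene (y axis, GC content rising downward) in 4 comparisons, with exact 95% limits; an arrow from the upper limit marks a count of 0 in the library named first. In the panels over WT isoform 1, FAT4 lies at the left and the CELSR genes and DCHS1 at the right of 0.

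The paralogs were set against WT FMR1. FXR2 reached FAT1 and FAT3 at densities whose ratios to WT FMR1 had intervals holding 1: 1.22 and 0.785 over isoform 1, and 1.04 and 0.812 over isoform 7. Under median-of-ratios scaling the FAT1 ratio over isoform 7 was 0.643, below its interval of 0.764 to 1.41. On CELSR2, FXR2 was sparse, with 4 sites against 55 in WT isoform 1 and 90 in WT isoform 7. The ratios were 0.257 (0.0676 to 0.696) and 0.101 (0.0270 to 0.268). On CELSR1 the ratio was 0.219 over isoform 7 (0.0681 to 0.544) and 1.36 over isoform 1 (0.379 to 4.06). On FAT4, with 1 site in FXR2, it was 0.0324 over isoform 1 (0.000813 to 0.184) and 0.12 over isoform 7 (0.00288 to 0.753).

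By the 2-fold rule, FXR2 had 1 gene higher (CELSR3) and 2 lower (FAT4 and CELSR2) against WT isoform 1, where 14.1% of windows were higher (23.2% without the filter) and 23.2% lower. The CELSR3 interval held 1. Against WT isoform 7 it had 0 genes higher and 3 lower (FAT4, CELSR1 and CELSR2), where 20.5% of windows were higher and 23.6% lower (59.3% without the filter).

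FXR1 had 21 sites on FAT1, 4 on FAT3 and 1 on CELSR3, and none on the other genes. On FAT1 the ratio of FXR1 to WT density was 1.51 over isoform 1 (0.913 to 2.38) and 1.29 over isoform 7 (0.773 to 2.04). Under median-of-ratios scaling the value over isoform 7 was 0.631, below that interval. With 3 sites counted in place of 0, CELSR2 was 3.45-fold lower in FXR1 than in WT isoform 7 (upper limit of the ratio 0.364). It was 1.36-fold lower than in WT isoform 1 (upper limit 0.938). CELSR1 was 1.99-fold lower than in WT isoform 7 (upper limit 0.640), and FAT4 2.69-fold lower than in WT isoform 1 (upper limit 0.465). These folds leave out the counting error of the WT counts, which the upper limits include. For DCHS1, for CELSR3, and for the other pairing of CELSR1 and of FAT4, the depth of the FXR1 list could not show a difference.

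Under the 2-fold rule a site of FXR1 weighs 11.1 per 100000. By this rule 4 genes were lower (FAT4, DCHS1, CELSR1 and CELSR2) and 0 higher than in WT isoform 1. Only FAT4 and CELSR2 of these had intervals below 1. Against WT isoform 7, 5 genes were lower (FAT4, DCHS1, CELSR1, CELSR2 and CELSR3) and 0 higher, and only CELSR1 and CELSR2 had intervals below 1. The corresponding shares of windows were 46.5% lower and 31.5% higher, and 46.7% lower and 38.3% higher. Without the filter, 16.7% were higher than in WT isoform 1, and 78.5% were lower and 15.5% higher than in WT isoform 7. Set against FXR2 directly, FXR1 had 4 genes lower and 0 higher, where 39% of windows were lower and 32.9% higher (59.9% and 21.7% without the filter), and all 7 intervals held 1.

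Along FAT1, FAT3, FAT4 and CELSR1, sites were gathered in stretches that took up a small part of the span, while on CELSR2 and CELSR3 the stretches took up most of it. Joining sites at gaps of up to 1000 nt over all libraries gave 19 stretches on FAT1, 25 on FAT3, 16 on FAT4, 4 on DCHS1, 23 on CELSR1, 4 on CELSR2 and 7 on CELSR3. Together the stretches took up 2.86% of the FAT3 span, 6.51% of CELSR1, 8.86% of FAT4, 14.2% of FAT1, 33.6% of DCHS1, 57.0% of CELSR3 and 64.6% of CELSR2. All exons of the longest annotated coding transcript make up 3.50%, 6.46%, 9.13%, 10.8%, 31.2%, 45.2% and 40.9% of the gene in the same order. The annotation is of another build, GRCh38, so single sites were not placed on exons, introns or UTRs.

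The stretch of FAT1 with the most sites lay 104977 to 109651 nt from the 5′ end of its span (chr4:187538189-187542919, hg19, minus strand) and held 210 of its 737 sites. It was 4675 nt long between the outer site midpoints, and the longest exon of FAT1, exon 12, has 4068 nt. It took 27.1% of FAT1 sites in I304N isoform 1, 26.4% in I304N isoform 7, 38.1% in FXR1, 29.2% in FXR2, 27.5% in WT isoform 7 and 30.9% in WT isoform 1. The next stretch, 3212 nt long from 16918 nt onward (chr4:187627736-187630970), held 147 sites, and the next longest exon, exon 2, has 3283 nt. Over the 4 FMR1 libraries the share of the first stretch ran from 26.4% to 30.9% and that of the next from 16.2% to 21.3%.

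On FAT4 the stretches with the most sites began 387 and 132113 nt from the 5′ end (chr4:126237931-126242689 and chr4:126369647-126373891, plus strand), with 42 and 38 of 149 sites. They were 4739 and 4218 nt long, beside annotated exons of 5188 nt (exon 1) and 4350 nt (exon 9). WT isoform 1 had 30 and 27 of these sites, which are 27.5% and 24.8% of its FAT4 sites, and its other FAT4 sites lay in 14 further stretches. On FAT3 the stretch with the most sites (chr11:92531114-92534952, plus strand) held 69 of 269 sites: 13 in I304N isoform 1, 2 in I304N isoform 7, 3 in FXR1, 9 in FXR2, 10 in WT isoform 7 and 32 in WT isoform 1. This stretch took 16.7% of FAT3 sites in I304N isoform 1, 9.52% in I304N isoform 7, 3 of the 4 sites in FXR1, 45.0% in FXR2, 17.9% in WT isoform 7 and 35.6% in WT isoform 1.

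The CELSR genes each had a stretch with many sites at the 5′ end of the span. It held 50 of 141 sites on CELSR1, 34.6% of 335 on CELSR2 and 69 of 185 on CELSR3, over 2905, 3091 and 3474 nt. The first exon is the longest of each gene, with 3544, 3371 and 4029 nt. On CELSR3 this stretch (chr3:48696408-48699905, minus strand) had 33 sites in I304N isoform 1 and 24 in I304N isoform 7, against 4 in WT isoform 7 and 5 in WT isoform 1. DCHS1 had no site in the first 14400 nt of its span, and its longest annotated intron has 13829 nt. From there to the 3′ end the I304N sites of DCHS1 were spread over 4 stretches, the one with the most sites holding 11 sites in I304N isoform 1 and 17 in I304N isoform 7, against 1 site in each WT FMR1 library.

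**Figure D4:**
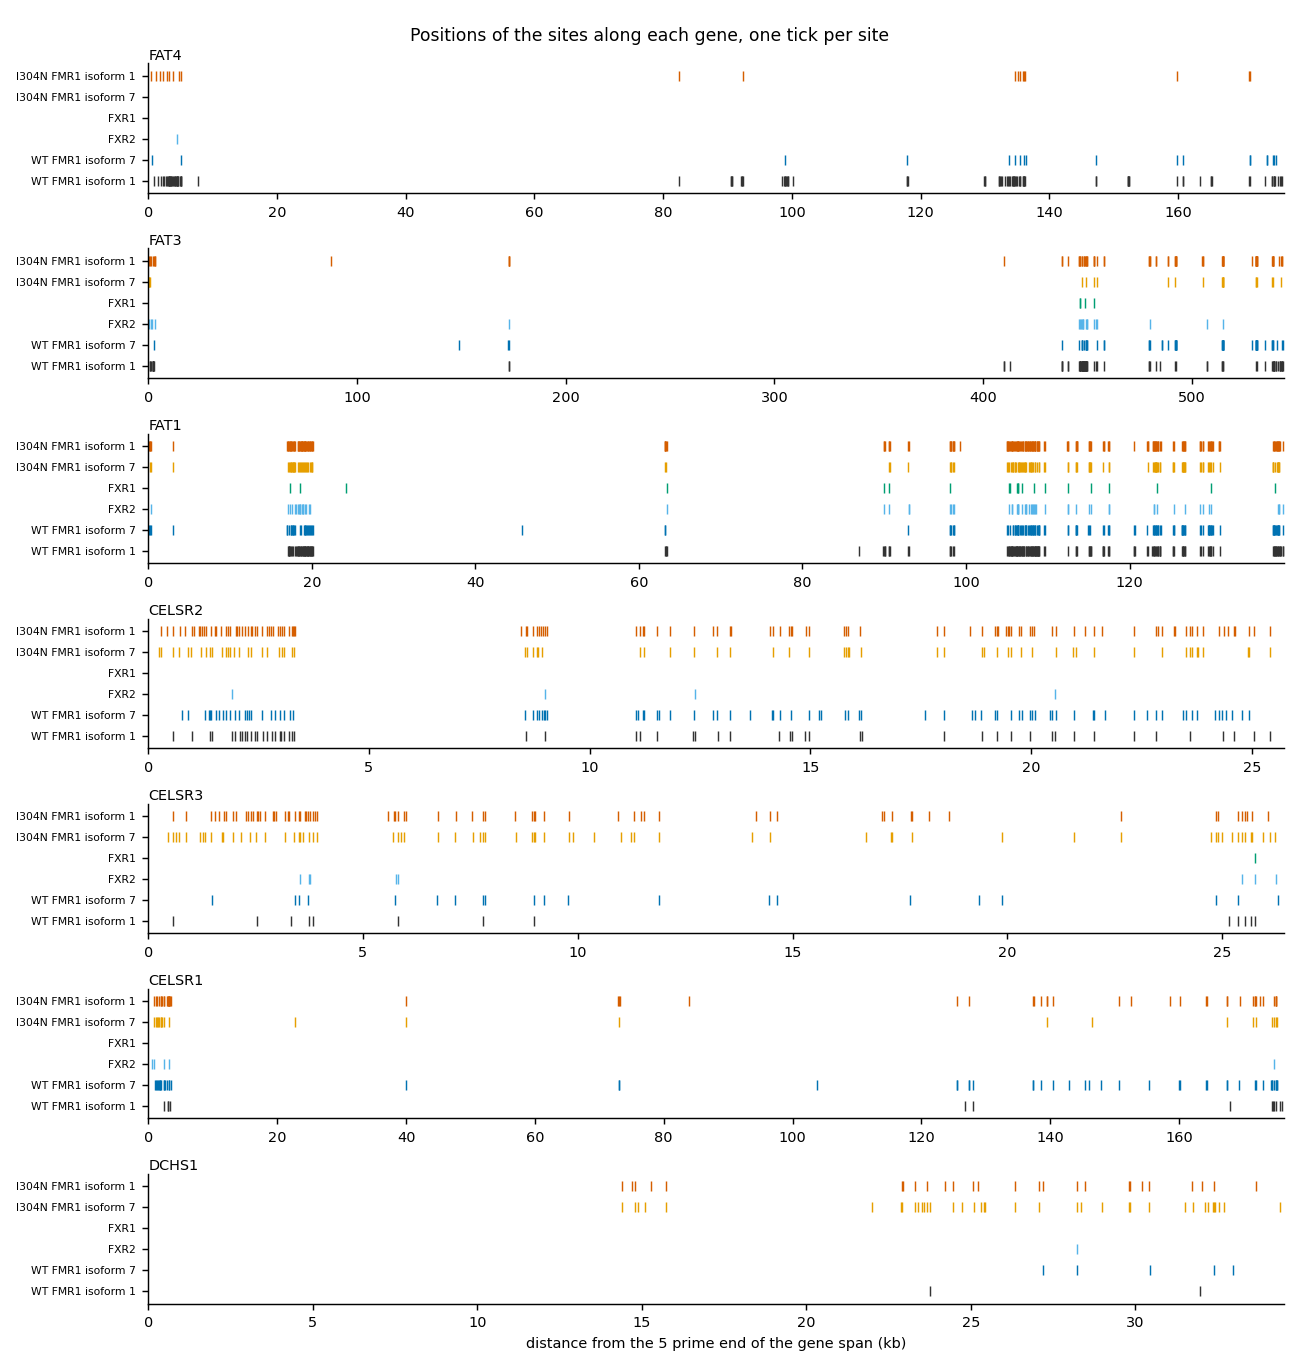
Positions of sites along each gene as distance from the 5′ end of its span (x axis, kb), a row per library and a tick per site. Ticks of different rows gather in many of the same stretches; FAT4 has 109 ticks in WT isoform 1, and DCHS1 has 26 and 38 ticks in the I304N rows.

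Sites that overlap across libraries were merged into 860 regions on the 7 genes. FAT1 had 197 regions covering 10560 nt, a length equal to 71.6% of its transcript. Of these, 92 (46.7%) had sites in 4 or more libraries and 7 in all 6. The 7 regions found in all 6 libraries lay between 98086 and 123317 nt from the 5′ end; the widest, chr4:187541409-187541573, has 165 nt. No other gene had a region found in all 6 libraries, in a set where FXR1 had sites on only FAT1, FAT3 and CELSR3.

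Recurrence was lower on the other genes. Regions with sites in 4 or more libraries numbered 24 of 140 on CELSR2, 13 of 156 on FAT3, 6 of 112 on CELSR3, 2 of 81 on CELSR1, 1 of 50 on DCHS1 and 0 of 124 on FAT4. Outside the 7 genes the share was 11.1% of 237226 regions. On FAT4, 83.9% of regions came from a single library. FAT4 had sites in only 4 libraries, with 1 site in FXR2, so at most 1 of its regions could reach 4 libraries. DCHS1 was also limited, with 2 sites in WT isoform 1, 1 in FXR2 and 0 in FXR1. Regions with sites in both I304N libraries and in neither WT FMR1 library made up 24.0% of DCHS1 regions, 17.9% of CELSR3, 9.29% of CELSR2 and 7.41% of CELSR1, against 2.56% of FAT3, 2.03% of FAT1, 0 of FAT4 and 8.32% outside the 7 genes. Regions of both WT FMR1 proteins without I304N were 5.65% on FAT4, 0 on DCHS1 and CELSR3 and 1.88% outside. These shares rest on the same sites as the densities above. With 0 FAT4 sites in I304N isoform 7, the FAT4 share of regions with both I304N libraries could only be 0.

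**Figure D5:**
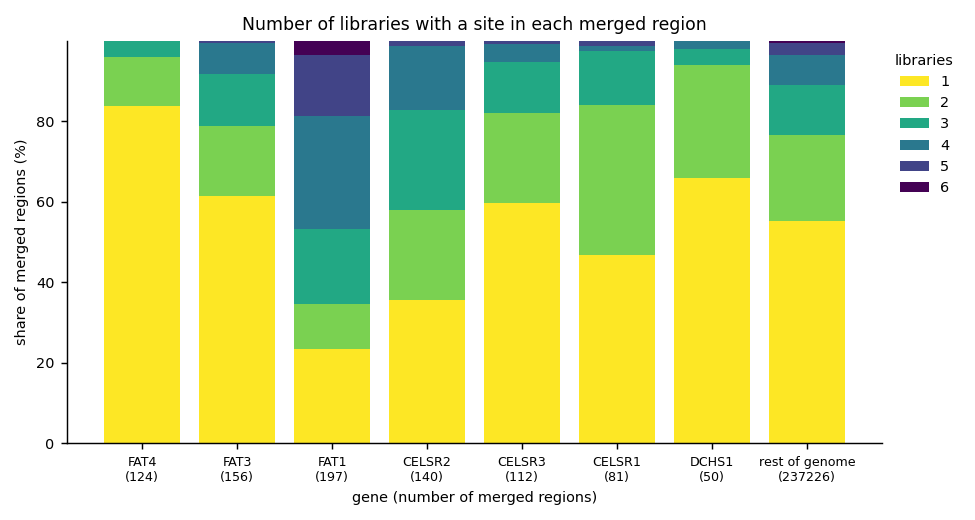
Share of merged regions (y axis, percent) with sites in 1 to 6 libraries, for each gene and for the rest of the genome. FAT1 has the largest share of regions seen in 4 or more libraries (46.7%), against 11.1% in the rest. FAT4 has none, but its sites come from only 4 libraries, with 1 site in FXR2.

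At the level of single sites, FXR1 and FXR2 were set against each FMR1 library. Of 26 FXR1 sites on the 7 genes, 61.5% (40.6 to 79.8) overlapped a site of I304N isoform 1 by at least 1 nt, against 27.3% of FXR1 sites elsewhere. For WT isoform 1 the share was 88.5% (69.8 to 97.6) against 69.9% elsewhere, which lies within the interval. For I304N isoform 7 and WT isoform 7 it was 15.4% each (4.36 to 34.9), against 18.3% and 21.3% elsewhere, also within the interval. The first of these shares was 30.8% when at least 50% of the shorter site had to overlap and 7.69% when 50% of both sites had to.

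FXR2 sites on the 7 genes overlapped I304N isoform 1 in 69.2% (59.4 to 77.9) against 46.1% elsewhere, WT isoform 7 in 47.1% (37.2 to 57.2) against 32.0%, and WT isoform 1 in 74.0% (64.5 to 82.1) against 64.3%. With I304N isoform 7 the share was 42.3% (32.7 to 52.4) against 34.8%, within the interval. Among I304N sites, 48.9% of isoform 1 and 50.7% of isoform 7 overlapped a site of the WT protein of the same isoform, against 41.6% and 41.9% elsewhere. Requiring 50% of both sites lowered all the shares in these sentences, the last pair to 28.8% and 44.1%; the shares elsewhere were not recomputed. Crowded sites overlap more easily, merged regions span 71.6% of the FAT1 transcript length, and the part of crowding was not tested.

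Few sites lay on the opposite strand or in repeats. On the opposite strand of the 7 spans there were 2 sites, both on CELSR1, against the 1888 on the genes' own strand. Sites that the authors marked as lying in repeats numbered 18, and made up 1.26% of sites in I304N isoform 1 and 0.426% in WT isoform 1, against 3.04% and 5.37% of the other sites of these libraries. The median width was 25 nt in I304N isoform 1, 23 in I304N isoform 7, 20 in FXR1, 20 in FXR2, 22 in WT isoform 7 and 25 in WT isoform 1, within 2 nt of the other sites of each library.

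Windows of 50 kb outside the genes were ranked by how closely their profile over the 6 libraries matched that of the 7 genes together, as the Euclidean distance of centred log2 densities among 654 windows with at least 3 sites in every library. The closest were chromosome 20 from 61550001 to 61600000 (distance 0.464), chromosome 17 from 27000001 to 27050000 (0.489) and chromosome 19 from 47400001 to 47450000 (0.520), all on the plus strand of hg19. The median distance was 2.36. Genes in these windows were not analysed here.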

How the data were processed

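The data were 6 deposited lists of PAR-CLIP sites, 1 per protein form, grouped by the precipitated protein in the labels. Per the submitters' processing notes, the alignment used Bowtie 0.12.7 and hg19. How sites were called, with which thresholds and from how many reads, is not given in the sources used here; per the labels' protocols either of 2 sequencer models was used, without saying for which library. The deposited score is a flag, 1000 outside repeats and 0 in repeats per the file headers, so every site counts once, whatever its read number. The number of sites depends on depth and on the caller.

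The members, the families and the comparisons were chosen with earlier results of these data known. Densities are sites per 100000 sites of the library. Ratios carry exact conditional intervals and shares exact Clopper-Pearson intervals, at 95%, covering counting error only. The 2-fold rule uses log2 densities with a pseudocount of 1, on the genes and on strand-specific windows of 50 kb with a mean of at least 2 sites per 100000. With 1 library per group no p-value was computed. All 7 genes are named. GENCODE release 29, on GRCh38, gave transcript, exon and intron lengths and sequences only, and no coordinate was converted. Other genes of the polarity and Hippo pathways, and FAT2 and DCHS2, were not analysed here, since no hg19 annotation was at hand. Alternatives were another assignment of sites, sites outside repeats only, other scalings, covered nucleotides, joined sites, stricter overlaps and other windows. Scripts used Python 3.11.15, pandas 2.3.3 and scipy 1.17.1, and the window counts were tested on simulated data.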

Additional observations from a re-analysis of the deposited data

Results flagged for a closer look

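Counted by single sites per 100000, CELSR1 and CELSR2 moved in opposite directions with I304N in the 2 isoforms, each beyond its counting interval. The CELSR1 ratio of I304N to WT was 3.48 in isoform 1 and 0.375 in isoform 7. The CELSR2 ratio was 1.96 in isoform 1 and 0.679 in isoform 7. For CELSR2 both depended on the processing. With sites within 50 nt joined, its ratio in isoform 1 was 1.16. Under median-of-ratios scaling that ratio was 3.05, above its interval of 1.41 to 2.75. Median-of-ratios scaling raised every log2 ratio in isoform 7 by 0.30, which takes the upper limit for CELSR2 (0.939) past 1. With 1 library per form the difference between isoforms was not tested. Densities of the I304N libraries were 37.1 (isoform 1) and 24.8 (isoform 7) per 100000 on CELSR1 and 88.5 and 77.8 on CELSR2. Those of the WT libraries were 66.2 (isoform 7) and 10.7 (isoform 1) on CELSR1 and 115 and 45.1 on CELSR2, so the WT libraries differed from each other more than the I304N libraries did.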

How the results depend on the processing

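Values refer to all 7 genes unless a gene is named. Assigning sites by any overlap, leaving out repeat sites or leaving out mitochondrial sites left all 9 ratios within their counting intervals. Median-of-ratios scaling shifted every log2 ratio over WT isoform 1 by 0.64 for I304N isoform 1 and by 0.60 for WT isoform 7, that of I304N isoform 7 over WT isoform 7 by 0.30 and over I304N isoform 1 by 0.26, and those of FXR1 and FXR2 over WT isoform 7 by -1.03 and -0.70. The ratios were then 1.69 for I304N over WT in isoform 1 and 0.980 in isoform 7, 1.92 for isoform 7 over isoform 1 in WT and 1.11 with I304N, 0.288 for FXR1 and 0.379 for FXR2 over WT isoform 7. With sites within 50 nt joined, the ratio was 0.943 for I304N over WT in isoform 7 and 1.19 for isoform 7 over isoform 1 with I304N, and the share of sites was 0.353% in I304N isoform 1 and 0.342% in WT isoform 1. By covered nucleotides, isoform 7 over isoform 1 with I304N was 0.810. With WT isoform 7 as reference for I304N isoform 1, an alternative chosen after seeing the data, the ratio was 0.857, and it reversed for CELSR1 (0.559) and the CELSR genes together (0.874). The cause was not tested. For single genes, the FAT1 ratio over WT isoform 1 passed 2-fold for WT isoform 7, FXR1 and FXR2 with joined sites. The CELSR2 ratio of WT isoform 7 over WT isoform 1 fell to 1.72 with joined sites and rose to 3.84 under median-of-ratios scaling. For I304N over WT in isoform 1, the CELSR2 ratio was 1.16 and 3.05 under these settings. Under median-of-ratios scaling the FAT1 ratios over WT isoform 7 were 0.643 for FXR2 and 0.631 for FXR1. Of the ratios past 2-fold, CELSR1 and the CELSR genes together in I304N isoform 1 were the ones that changed direction under any alternative run. Under an overlap of 50% of both sites 28 of 30 overlap shares moved past their intervals, to between 0 and 60.8%, and under 50% of the shorter site 2 did. The windows past 2-fold moved by more than 1.5 times in 12 of 18 counts without a filter and in 11 with a pseudocount of 5, and in 0 with windows of 200 kb. No paired analysis was possible because the groups share fewer than 2 replicate numbers; a fit that takes the isoforms as pairs of I304N and WT was not run. With 1 library per group no replicate could be left out. The FXR1 list limits what can be seen: 3 sites are 33.3 per 100000 there.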
